A study of Rattus norvegicus with 10 samples.

Results

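The 7 genes described here encode the enzymes that make γ-aminobutyric acid (GABA) and some of its receptors: Gad1 and Gad2, Gabbr1, Gabra2, Gabra4, Gabra5 and Gabrb1. On the array they were taken as all probe sets annotated with exactly 1 of these symbols, which gave 12 probe sets of the 31042 measured. Hippocampal mRNA of male Wistar rats was hybridized to Affymetrix rat genome arrays, 1 array for each rat. In the C-group, 5 rats ate solid chow for 8 days, and in the P-group, 5 rats ate powdered feed for 8 days, both after acclimatization on powdered feed. The labels give the age as 4 weeks in both groups. The sources give no genetic change for either group. The hippocampus was dissected by hand, so each value is a mean over all of its cell types. In such tissue, fewer cells of a type and less RNA per cell cannot be told apart. All values are log2 expression values, and a difference is C-group minus P-group. Levels of different probe sets cannot be set against each other, because each has its own probes.

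GABA is the main inhibitory transmitter of the adult brain. In the hippocampus it is made in interneurons by 2 glutamate decarboxylases, GAD67 from Gad1, which supplies most of the GABA of the cell, and GAD65 from Gad2, which is enriched at axon terminals. GABA-A receptors are chloride channels of 5 subunits, in which Gabra2, Gabra4 and Gabra5 provide α subunits and Gabrb1 a β subunit, and the α subunit largely sets the location and kinetics of the channel. GABA-B receptors are G protein-coupled and act on calcium and potassium channels, and Gabbr1 encodes the subunit that binds GABA.

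The regions just before the transcription starts of Gad2, Gabbr1 and Gabrb1 are shown first, because each of these genes had a probe set that varied between the rats. RefSeq promoters (build GRCr8) were found for 6 of the 7 members, and the 250 bases before the start are printed 5′ to 3′ with every CpG dinucleotide in capitals. The Gad2 window is chr17:89671468-89671717 on the plus strand, the Gabbr1 window chr20:1499237-1499486 on the minus strand and the Gabrb1 window chr14:36902894-36903143 on the minus strand.
Gad2: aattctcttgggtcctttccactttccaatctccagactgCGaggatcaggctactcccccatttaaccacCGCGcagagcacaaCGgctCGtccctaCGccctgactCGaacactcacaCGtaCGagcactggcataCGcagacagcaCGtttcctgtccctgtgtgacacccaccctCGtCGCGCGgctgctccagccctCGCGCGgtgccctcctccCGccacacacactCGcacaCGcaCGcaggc
Gabbr1: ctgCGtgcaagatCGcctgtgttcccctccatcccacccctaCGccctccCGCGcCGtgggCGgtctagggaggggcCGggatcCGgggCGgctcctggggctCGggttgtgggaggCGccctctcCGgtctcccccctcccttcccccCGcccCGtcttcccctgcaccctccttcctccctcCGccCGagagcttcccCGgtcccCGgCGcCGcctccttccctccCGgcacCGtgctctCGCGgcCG
Gabrb1: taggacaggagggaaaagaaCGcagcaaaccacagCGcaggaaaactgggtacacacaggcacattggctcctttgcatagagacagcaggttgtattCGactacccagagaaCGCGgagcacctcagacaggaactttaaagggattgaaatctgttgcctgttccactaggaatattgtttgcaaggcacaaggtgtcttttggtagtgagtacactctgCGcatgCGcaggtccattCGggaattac
The Gad2 window held 22 CpG at 62.0% G and C, and the Gabbr1 window 26 CpG at 75.6%, more CpG than 86.3% and 91.4% of the 33465 RefSeq windows of this length. The Gabrb1 window held 8 CpG at 49.2%, close to the medians of 5 CpG and 51.2% over all windows. On either strand, the GC box GGGCGG occurred 4 times in the Gabbr1 window and not in those of Gad2 and Gabrb1, and 30.5% of all windows held it. The TATA box TATAAA and the cAMP response element core TGACG, held by 12.9% and 18.2% of all windows, were in none of the 3 printed windows. These matches describe the sequences only, and the arrays did not measure promoter use.

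Of the 12 probe sets, 4 varied between the rats and 8 hardly varied at all. The summary method of the deposited values shrinks a probe set to a near constant where no common signal is found in its probes, and a probe set is called variable here when its standard deviation (SD) over the 10 rats was above 0.01. The variable ones were those of Gad2 (SD 0.230), Gabbr1 (1 of 5 probe sets, SD 0.408), Gabra2 (SD 0.272) and Gabrb1 (SD 0.132). This is 33.3% of the member probe sets, against 9.36% of all probe sets on the array (2904 of 31042). The other 8 had SDs from 0.000136 to 0.000320 at levels from 6.89 to 11.20, and their largest and smallest values in any rat differed by 0.00102 at most. For Gad1, Gabra4 and Gabra5 no probe set was variable, so these values carry almost no information on a difference between the diets.

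**Figure D1:**
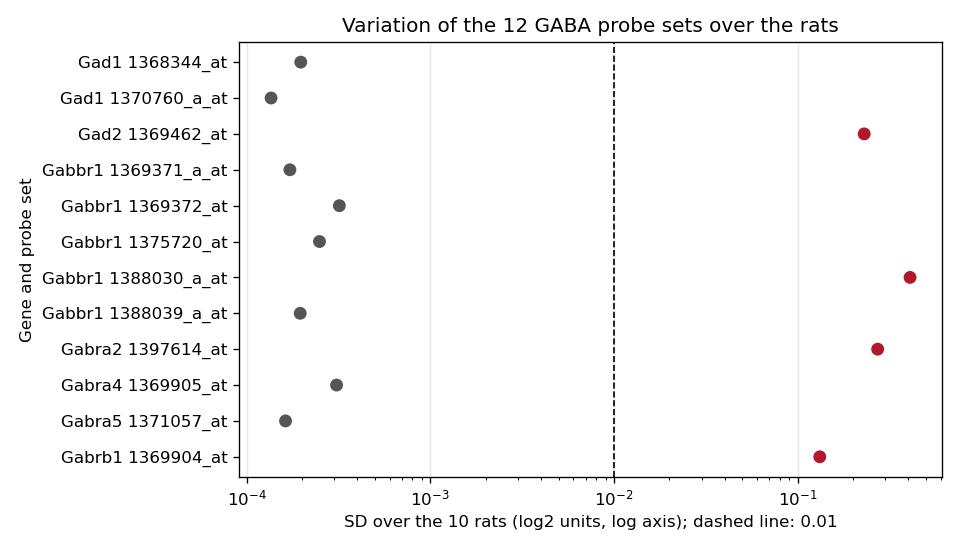
SD over the 10 rats of each of the 12 probe sets, with the SD in log2 units on a log axis and 1 row for each probe set. The 4 red points to the right of the dashed line at 0.01 are Gad2, 1 probe set of Gabbr1, Gabra2 and Gabrb1, and the 8 gray points lie at 0.000320 or less.

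One array stood apart before any comparison. Rat C1 of the C-group was the highest rat for 1553 of the 2904 variable probe sets (53.5%) and the lowest for 641 (22.1%), whereas each of the other rats was the highest for 70 to 246. All 4 variable member probe sets were highest in C1. Differences and relations of the members are therefore also given without this rat.

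Gad2 had values of 8.21, 7.65, 7.74, 7.66 and 7.71 in rats C1 to C5 of the C-group, and 7.80, 7.64, 7.67, 7.48 and 7.32 in rats P1 to P5 of the P-group. C1 lay above every other rat and P5 below, and the remaining rats of the 2 groups overlapped between 7.48 and 7.80. The mean was 7.79 ± 0.23 in C-group rats and 7.58 ± 0.19 in P-group rats (SD, n = 5 each). These means differed by 0.21 (standard error 0.13), or 1.16-fold, with an adjusted p = 0.927 by limma over all probe sets. The difference of the medians was 0.07. Without C1 the difference was 0.11 (standard error 0.09). Gad1, the other decarboxylase gene, was measured by 2 probe sets at 11.17 and 7.09, which differed by 0.000681 and 0.000384 at most between any 2 rats.

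Gabbr1 showed the largest difference of the 4 variable member probe sets, at 1 of its 5 probe sets. This probe set had values of 8.58, 7.94, 8.02, 8.49 and 7.74 in C1 to C5, and 8.06, 7.84, 7.80, 8.20 and 7.14 in P1 to P5. C1 and C4 were above all rats of the P-group, P5 was below all other rats, and the other 7 rats overlapped. The mean was 8.15 ± 0.36 in C-group rats and 7.81 ± 0.41 in P-group rats (SD, n = 5 each). These means differed by 0.35 (standard error 0.24), or 1.27-fold, with an adjusted p = 0.927 by limma. Without P5 the difference was 0.18 (standard error 0.20), and without C1 0.24 (standard error 0.24). The other 4 probe sets of Gabbr1, at 11.20, 10.70, 9.06 and 6.89, had SDs from 0.000172 to 0.000320. The difference therefore rests on a single probe set of this gene.

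Among the GABA-A receptor subunits, Gabra2, which encodes the α2 subunit, was measured by 1 probe set. Its values were 9.52, 9.32, 9.05, 8.84 and 8.94 in C1 to C5 and 9.48, 8.90, 8.94, 8.73 and 9.03 in P1 to P5. C1, P1 and C2 stood above the other 7 rats, so that the highest rats came from both diets. The mean was 9.13 ± 0.28 in C-group rats and 9.02 ± 0.28 in P-group rats (SD, n = 5 each). These means differed by 0.12 (standard error 0.17), with an adjusted p = 0.932 by limma. The difference was 0.02 without C1, 0.07 without C2, 0.19 without C4, 0.04 without P4 and 0.23 without P1.
Gabrb1, which encodes the β1 subunit, had values of 10.78, 10.52, 10.55, 10.44 and 10.48 in C1 to C5 and 10.60, 10.28, 10.53, 10.62 and 10.64 in P1 to P5. C1 was the highest and P2 the lowest, and the other rats lay between 10.44 and 10.64. The mean was 10.55 ± 0.13 in C-group rats and 10.53 ± 0.15 in P-group rats (SD, n = 5 each). These means differed by 0.02 (standard error 0.09), with an adjusted p = 0.971 by limma. The median was 10.52 in the C-group and 10.60 in the P-group, so the medians differed in the opposite direction, by -0.08. The difference was -0.04 without C1 and -0.04 without P2. P2 also differed from the other rats in pineal and photoreceptor markers, whose mean over 9 variable probe sets was 8.62 in P2 and 6.12 to 6.21 elsewhere, and their part in the Gabrb1 value was not tested. Gabra4, which encodes the α4 subunit found in extrasynaptic receptors, and Gabra5, which encodes the α5 subunit abundant in hippocampal pyramidal cells, were at 7.87 and 10.30 in every rat to 2 decimals.

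**Figure D2:**
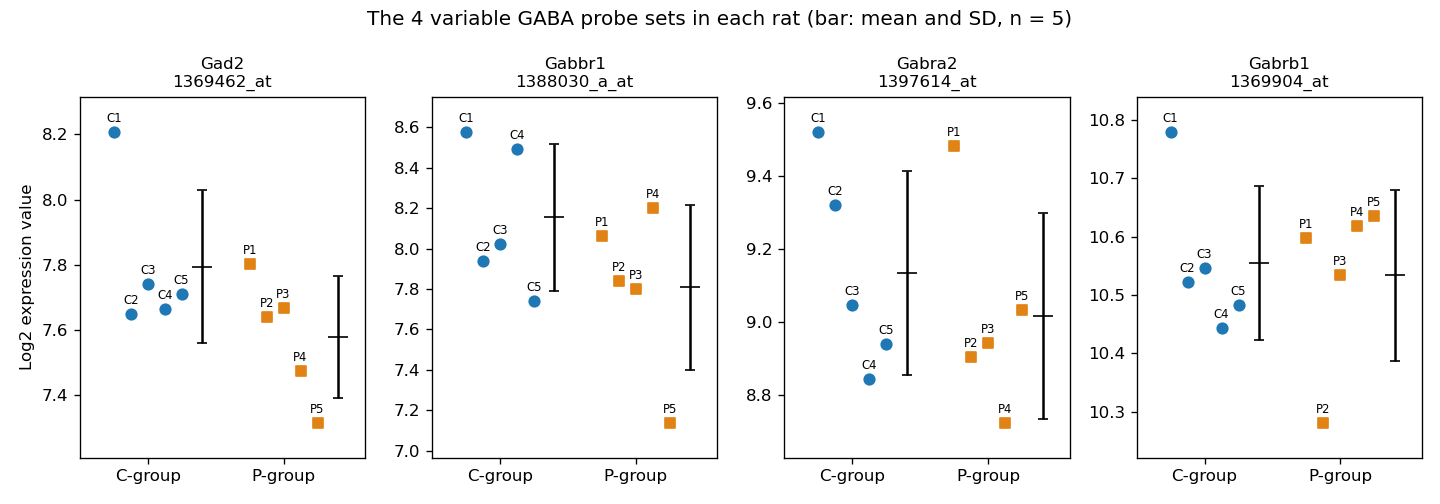
Log2 expression values of the 4 variable probe sets in each rat, with blue circles for the C-group (C1 to C5), orange squares for the P-group (P1 to P5) and black bars for the mean and SD (n = 5). C1 is the highest of the 10 rats in each panel, P5 is the lowest for Gad2 and Gabbr1, and the groups overlap in all 4.

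No member passed limma, which sets each difference in relation to the variation within the groups. At the adjusted threshold of 0.05, limma called 0% of all 31042 probe sets in either direction, the lowest adjusted p being 0.927. Of all probe sets, 915 had an unadjusted p under 0.05, none of them a member, and this count ranged from 616 to 1792 with 1 rat left out. Rank products, the method of the study, ranks all probe sets in each of the 25 pairwise comparisons of rats from the 2 diets and uses the size of a difference alone. At a false discovery rate (FDR) under 0.05 it called 2 of the 12 member probe sets higher in the C-group, those of Gabbr1 (FDR 0.0106) and Gad2 (FDR 0.0383), and none lower. Over all probe sets it called 1.99% higher (617) and 0.383% lower (119). All of these calls lay in the 2904 variable probe sets, of which 21.2% were called higher and 4.1% lower, so the 2 of 4 variable members are to be read beside that share. Gabra2 (FDR 0.114) and Gabrb1 (FDR 0.979) were not called. When ranks were taken over the 2904 variable probe sets alone, neither Gabbr1 (FDR 0.668) nor Gad2 (FDR 0.968) was called.

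Both calls depended on single rats. With 1 rat left out, Gad2 was called in 2 of 10 sets, those without P1 (FDR 0.00902) and without P3 (FDR 0.0265). It was not called without C1 (FDR 0.162), C2 (0.0685), C3 (0.0777), C4 (0.0662), C5 (0.0769), P2 (0.0535), P4 (0.0844) or P5 (0.116). Gabbr1 was called in 7 of 10 sets and lost its call without C1 (FDR 0.0754), C4 (0.0875) or P5 (0.0763). Gabra2 was called in 1 of 10 sets, that without P1 (FDR 0.0346). The differences of Gad2, Gabbr1 and Gabra2 were above 0 in all 10 sets, from 0.11 to 0.27, from 0.18 to 0.45 and from 0.02 to 0.23. That of Gabrb1 ran from -0.04 to 0.05.

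**Figure D3:**
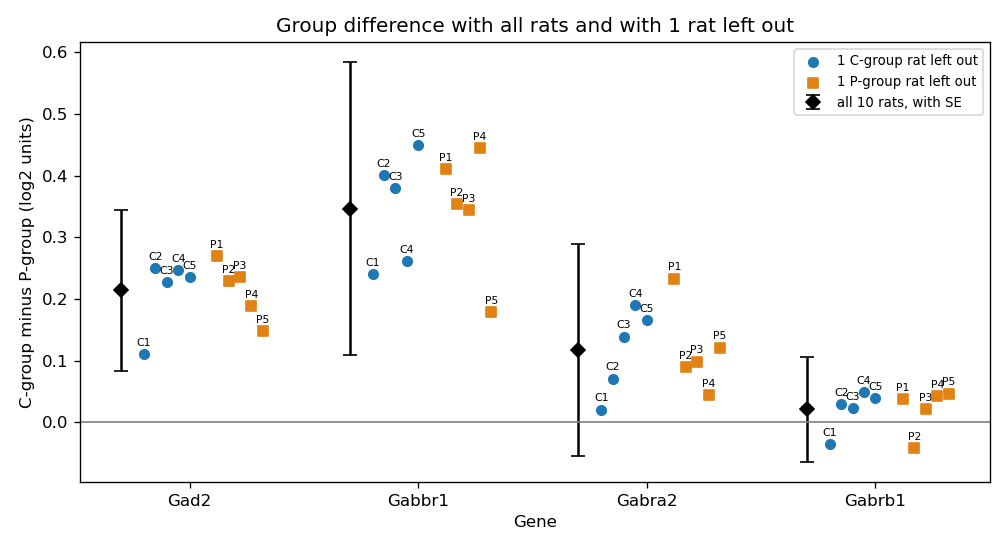
Difference between the groups, C-group minus P-group in log2 units, for the 4 variable probe sets. Black diamonds with bars are the value and standard error with all 10 rats, and blue circles and orange squares are the values with the named rat of the C-group or P-group left out. Gad2 is lowest without C1 (0.11), Gabbr1 without P5 (0.18), and Gabrb1 lies below 0 without C1 or P2.

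The other genes of GABA signaling were taken from lists set out by role. Including the members, 44 of 52 listed genes had a probe set, 12 had a variable one, 5 were called higher by rank products, none was called lower and none passed limma. Over all 14217 genes, at the most variable probe set of each, 343 were called higher and 77 lower, all of them among the 1789 variable ones. The 5 of 12 variable GABA genes are to be read beside that share. Without C1 none of the 5 was called (FDR from 0.0754 to 0.162). The median difference of the 12 variable genes was 0.07, against 0.06 for the 1789 variable genes of the array. Of the 16 GABA-A receptor subunits measured, 4 were variable and none was called, and beside Gabra2 and Gabrb1 these were Gabrb2 (difference -0.09, standard error 0.11) and Gabrg1 (0.02, standard error 0.08). Of the 5 genes of GABA transport and breakdown, only Slc32a1 was variable. This gene encodes the transporter that fills synaptic vesicles with GABA, and it differed by -0.02 (standard error 0.09). The chloride transporter genes Slc12a5 and Slc12a2 had no variable probe set.
Of 15 genes of receptor clustering and trafficking, 5 were variable and 3 were called higher, against 343 of the 1789 variable genes of the array. Nsf, which encodes an ATPase that takes apart SNARE complexes, differed at the more variable of its 2 variable probe sets by 0.21 (standard error 0.17, FDR 0.0316). Trak1, an adaptor for transport along microtubules, differed by 0.14 (standard error 0.06, FDR 0.0409), and Iqsec3, a gephyrin-binding exchange factor of inhibitory synapses, by 0.12 (standard error 0.06, FDR 0.0332). Without C1 these 3 differed by 0.11, 0.08 and 0.06 and were not called (FDR 0.128, 0.124 and 0.107). Gabarap, which binds GABA-A receptor γ subunits, and Ubqln1, which binds their subunits inside the cell, differed by 0.01 and -0.11 (standard errors 0.01 and 0.16), and by 0.000274 and 0.05 without C1. Of the 13 variable probe sets of these lists, members included, C1 had the highest value in 10 and the lowest in 2, those of Gabrb2 (9.47, against 9.90 to 10.06 in the other rats) and Ubqln1 (8.48, against 9.10 to 9.32).

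How the members varied together was measured over the 10 rats for the 6 pairs of variable probe sets, with permutation tests of 100000 resamples adjusted over the pairs. Gad2 and Gabbr1 had a Pearson's r of 0.69 (permutation p = 0.0397, adjusted p = 0.119) and a Spearman's rho of 0.42 (permutation p = 0.232, adjusted p = 0.465). Without C1 and P5, the 2 rats farthest from the median of Gad2, r was -0.22, so this relation rested on those rats, and without C1 alone it was 0.54. Gad2 and Gabra2 had an r of 0.66 (permutation p = 0.0294, adjusted p = 0.119) and a rho of 0.62 (permutation p = 0.0594, adjusted p = 0.356), and r was 0.41 without C1, 0.69 without C1 and P5 and 0.65 for deviations from the group means. The other 4 pairs had r from 0.18 to 0.52 (from -0.33 to 0.26 without C1) and adjusted p from 0.244 to 0.617 (permutation test). No pair passed the threshold after adjustment.

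Gabra2 varied over the rats with Gabrg1, which encodes the γ1 subunit and is its neighbor in the genome. In the RefSeq annotation of GRCr8, Gabrb1, Gabra4, Gabra2 and Gabrg1 lie in this order on chromosome 14, with Cox7b2 as the only other protein-coding gene between them. Gabrg1 had values of 7.86, 7.57, 7.51, 7.46 and 7.54 in C1 to C5 and 7.69, 7.55, 7.55, 7.50 and 7.52 in P1 to P5, so that C1 and P1 were the highest for both genes. Their r was 0.84 (permutation p = 0.00078, adjusted p = 0.0145 over the 36 relations between a variable member and another variable GABA probe set) and their rho 0.76 (permutation p = 0.0150, adjusted p = 0.246). The r was 0.82 without C1, 0.84 for deviations from the group means and 0.57 without C1 and P1. Of the 2903 other variable probe sets of the array, 304 (10.5%) had an r above 0.8 with Gabra2. Such a value was therefore not particular to Gabrg1 or to neighboring genes. Gabrb1 and Gabrg1 had an r of 0.60 (permutation p = 0.0956, adjusted p = 0.186), which was 0.15 without C1, and a rho of 0.20 (permutation p = 0.585, adjusted p = 0.910). Of the 36 relations, 3 others passed by r, namely Nsf with Gabra2 (r = 0.87) and with Gad2 (r = 0.82), and Ubqln1 with Gabra2 (r = -0.74), with adjusted p of 0.0206, 0.0145 and 0.0145 (permutation test). Without C1 these 3 had r of 0.80, 0.68 and -0.78. The Nsf values are those of the more variable of its 2 variable probe sets. The other Nsf probe set did not pass with Gabra2 (r = 0.70) or with Gad2 (r = 0.77), with adjusted p of 0.0997 and 0.0603 (permutation test). None of the 36 passed by rho (lowest adjusted p = 0.246, permutation test).

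The mean of the astrocyte markers was correlated with Gad2 by r but not by rho after adjustment. Of 10 listed astrocyte markers, 9 were measured and 5 were variable. Rank products called 4 of these higher in the C-group, against 343 of the 1789 variable genes of the array. They were the connexin genes Gja1 and Gjb6, the water channel gene Aqp4 and the glutamate transporter gene Slc1a3. Without C1 none of these 4 was called (FDR from 0.0657 to 0.107). Gfap, which encodes an intermediate filament protein of astrocytes, differed by -0.15 and was lowest in C1, the rat with the highest Gad2 value, at 10.71 against 11.42 to 11.59 in the other rats. The mean of the 5 ranged from 9.58 to 9.98 over the rats of the C-group and from 9.37 to 9.81 over those of the P-group, with C1 the highest and P4 and P5 the lowest. With this mean, Gad2 had an r of 0.88 (permutation p = 0.000970, adjusted p = 0.0349 over 36 relations between a member and a marker list) and a rho of 0.68 (permutation p = 0.0348, adjusted p = 0.666). It was 0.78 without C1, 0.75 without C1 and P5 and 0.84 for deviations from the group means. For Gabra2, r with the same markers was 0.82 (permutation p = 0.00296, adjusted p = 0.0533), and 0.72 without C1. With the means of the other marker lists, no relation passed after adjustment. With the oligodendrocyte marker mean, r was -0.78 for Gabra2 (permutation p = 0.00795, adjusted p = 0.0954), and -0.74 without C1. For Gad2 it was -0.60 (permutation p = 0.0627, adjusted p = 0.313). With the meningeal fibroblast marker mean, Gad2 had an r of 0.63 (permutation p = 0.0403, adjusted p = 0.313). With the microglia marker mean, Gad2 had an r of 0.67 (permutation p = 0.0612, adjusted p = 0.313), and -0.04 without C1. With the mean of 8 variable interneuron markers, which ranged from 8.45 to 8.71 in the C-group and from 8.48 to 8.69 in the P-group, Gad2 had an r of 0.41 (permutation p = 0.260, adjusted p = 0.615). The 15 variable choroid plexus markers were all called higher, against 343 of the 1789 variable genes of the array. Without C1 some kept the call, such as Ttr (FDR 0.005) and Sostdc1 (FDR 0.006). Others lost it, such as Cab39l (FDR 0.171) and Otx2 (FDR 0.117). The mean of the 15 ranged from 6.52 to 8.95 in the C-group and from 6.38 to 8.50 in the P-group. With this mean, r was 0.36 for Gad2 and -0.11 for Gabbr1 (permutation p = 0.341 and 0.768). The part of these cell types in the differences was not tested.

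**Figure D4:**
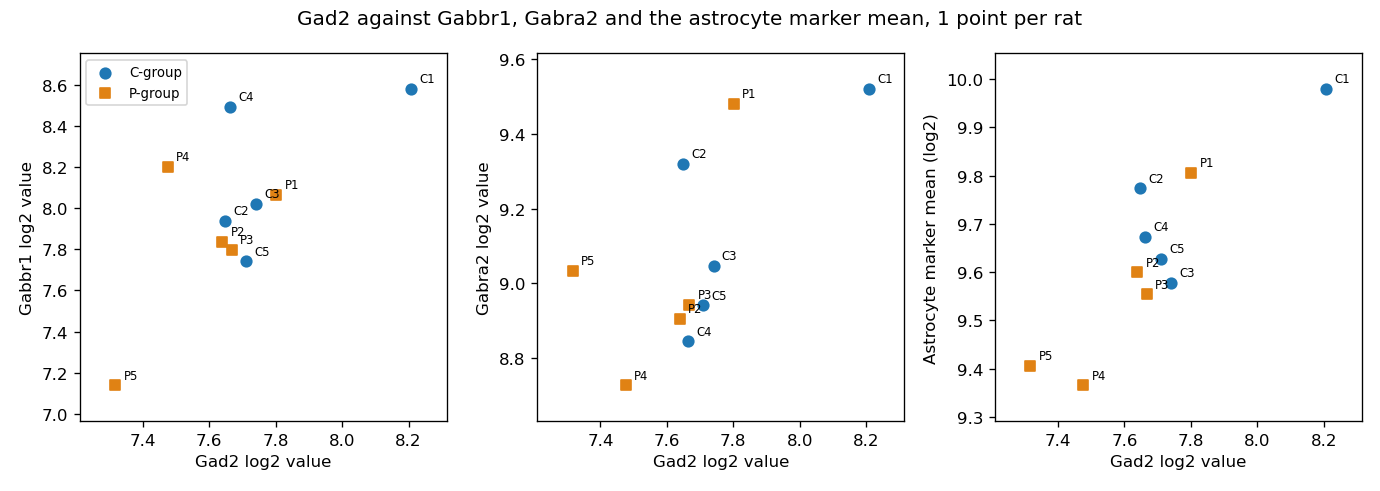
Gad2 on the horizontal axis against Gabbr1, Gabra2 and the mean of 5 variable astrocyte markers, all as log2 values, with 1 point for each rat, blue circles for the C-group and orange squares for the P-group. C1 lies at the upper right in all 3 panels, and P5 at the lower left in that of Gabbr1.

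The genes whose pattern over the 10 rats was most like that of a member were found among the named variable probe sets, by the highest r and as a description only. For Gad2 these were Pnp (r = 0.94), Eif4g1 (r = 0.93) and Sox2 (r = 0.93), and for Gabbr1 Ctxnd1 (r = 0.93), Emsy (r = 0.90) and Pfdn6 (r = 0.89). For Gabra2 they were Zfp329 (r = 0.97), Kcnma1 (r = 0.95) and Adam23 (r = 0.94), and for Gabrb1 Pcdh17 (r = 0.92), Matk (r = 0.90) and Rnf112 (r = 0.89). Without C1, the r of these genes ran from 0.80 (Sox2 with Gad2) to 0.96 (Zfp329 with Gabra2). The number of genes above a lower cut of 0.8 did depend on C1. Among the 2039 named variable probe sets outside the members, an r above 0.8 was found for 254 with Gad2, 48 with Gabbr1, 224 with Gabra2 and 22 with Gabrb1. Without C1 the counts were 10, 23, 91 and 6 in the same order of members, so that Gad2 no longer stood above Gabbr1.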

How the data were processed

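Hippocampal mRNA of 10 rats, 5 in each group, was measured on 1 array each. The deposited log2 values had been normalized and summarized by the authors with qFARMS in R 2.7.2. The study compared the groups by rank products in the same software. A genome build is not given in the sources used here. After removal of 57 control probe sets, 31042 remained, 20826 of them with 1 gene symbol. No gene was named from a probe set with several symbols. Arrays give no read depth, and their number limits the precision. The labels do not say that the rats came from separate litters, so p-values measure the spread between these samples.

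Rank products was run in Python 3.11.15 (numpy 2.4.6), unpaired, with 100 permutations of the values within arrays, and its FDR varies with the draw. limma 3.58.1 in R 4.3.3 gave standard errors and Benjamini-Hochberg adjusted p-values. Both were run on simulated data with independent noise and added changes larger than any difference of the members. That run therefore does not bear on differences of the size seen here. The text names every member, the listed GABA and astrocyte genes that were variable or called, and the 3 genes most like each variable member. The members and lists were chosen with earlier results of these data known. Alternatives changed the pairing, the filters, the normalization, the variance model and the rats used. The sources do not say whether the replicate numbers pair the rats, and the main comparisons did not take them as pairs.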

Additional observations from a re-analysis of the deposited data

Results flagged for a closer look

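In 8 of 26 groups of 5 rats checked, 1 rat lay far from the others (gap to the nearest rat over the range of the group above Dixon's critical value). Chance flags about 1 in 20 independent groups. The 26 groups come from the same 10 arrays and are not independent, so this rate does not apply to their count. Rat C1 was the distant one in 6 of the 8, at 8.21 for Gad2 (nearest rat 7.74), 9.47 for Gabrb2 (9.92), 7.86 for Gabrg1 (7.57), 11.14 for Gabarap (11.08), 9.97 for Iqsec3 (9.69) and 8.48 for Ubqln1 (9.17). In the P-group, P2 was distant for Gabrb1, at 10.28 (nearest rat 10.53), and P1 for Gabrg1, at 7.69 (7.55).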

How the results depend on the processing

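The differences of Gad2, Gabbr1 and Gabra2 kept their direction in all 16 alternatives to the limma fit (0.11 to 0.27, 0.18 to 0.45 and 0.02 to 0.23). No member passed limma in any of them. The pairing, the filters and the variance model leave a difference unchanged by construction. Only the normalization and the rats used could therefore change its direction. The sign of Gabrb1 changed in 2 of 16, at -0.0351 without C1 and -0.0420 without P2, and with 1 rat left out it ran from -0.0420 to 0.0491. Rank products called 156 probe sets higher, 36 lower and 1 member among the brighter probe sets, where fewer were ranked, and 6, 0 and 0 among the variable ones. With 1 rat left out, it called 79 to 789 higher, 10 to 230 lower and 0 to 3 members. Another draw of the permutations, added after seeing the data, gave 625, 129 and 2. When each gene was represented by its brightest probe set, 3 genes of the GABA lists were called, against 5. The cause of these shifts was not tested.

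With the replicate block, rank products called 912 probe sets higher, 337 lower and 3 members, Gabra2 included (FDR 0.0449), and limma called 0. Unadjusted limma p-values under 0.05 then numbered 1728, those of Gabbr1 (0.0134) and Gad2 (0.0424) included, against 915 without the block, 1787 after quantile normalization and 50 after centring each array on its median. With the block, the standard error went from 0.24 to 0.09 for Gabbr1 and from 0.13 to 0.08 for Gad2. For Gabra2 it went from 0.17 to 0.08, and for Gabrb1 from 0.09 to 0.08. Same-numbered rats correlated from -0.39 to 0.48 in their deviations from the group means. Of the C-group, 2 of 5 rats correlated best with their own number. The sources name no pairs, so the numbers were not taken as pairs, but these values cannot settle whether they are. The 10 arrays give no bound on probe sets left constant by the summary.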

Other observations

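Markers of the interneurons that make GABA differed in both directions. Of 19 measured interneuron markers, 8 were variable, and rank products called 1 of them, Reln, higher in the C-group and none lower. Over the array, it called 343 of the 1789 variable genes higher and 77 lower. Reln, which encodes the matrix protein reelin, averaged 8.03 ± 0.23 in C-group rats and 7.83 ± 0.14 in P-group rats (SD, n = 5 each). The means differed by 0.19 (standard error 0.12, FDR 0.0429), and by 0.14 without C1, where it was not called (FDR 0.134). Npy, a neuropeptide gene, was 8.57 in C1 and from 9.47 to 9.87 in the other 9 rats, and its difference was -0.24 with all rats and -0.00911 without C1. Sst, which encodes somatostatin, ranged from 9.99 to 10.28 over all rats and differed by 0.00399 (standard error 0.07). Of the remaining variable markers, Kcnc2, Cck and Vip differed by 0.16, 0.04 and 0.00344, and Dlx1 and Tac1 by -0.04 and -0.03. The median difference of the 8 variable markers was 0.00372.

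Of 10 variable markers of the excitatory neurons of the hippocampal fields, rank products called none higher and 1 lower in the C-group. Their median difference was -0.02. Over the array, 343 of the 1789 variable genes were called higher and 77 lower. Among the markers not called, Pcp4, Grik4 and Calb1 differed by 0.04, 0.04 and 0.03. Pou3f1, Amigo2, Wfs1, Prox1, Fibcd1 and Bok differed by -0.21, -0.08, -0.06, -0.02, -0.01 and -0.00135. The 1 called was Neurod6 (difference -0.25, standard error 0.15, FDR 0.00643), with its lowest value in C2, at 9.82 against 10.44 to 10.72 in the other rats. Its difference was -0.31 without C1 and -0.11 without C2 (FDR 0.0492).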
